A study of Mus musculus with 6 samples.

Results

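The clustered protocadherin genes were examined in mouse acute myeloid leukaemia cells with and without Dnmt3b. They were taken as the genes whose symbol begins with Pcdha, Pcdhb or Pcdhg followed by a number or an isoform letter, where an array row carried that symbol alone. The reference annotation of mouse assembly GRCm38.p6 lists 58 such genes on chromosome 18, with 14 in the alpha, 22 in the beta and 22 in the gamma cluster. Of these, 20 had a row of their own among 30142 genes, and all 20 were beta genes, Pcdhb1 to Pcdhb20. Pcdhb21 and Pcdhb22 shared a row, the 14 alpha genes shared another with Gm37013, and no row was named after a gamma gene. What follows on single genes therefore covers the beta cluster only.

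RNA came from 6 arrays, 3 from littermate control leukaemia and 3 from Dnmt3b-KO leukaemia. Every leukaemia was driven by the fusion oncogene MLL-AF9, grown in recipient mice and sorted from their bone marrow at the end of the disease. The labels do not state how Dnmt3b was deleted, the age and strain of the mice, or the sorting markers. They also do not say that each array came from its own mouse, so the tests weigh differences against a spread that may be technical. The signals are deposited log2 values, and differences are given in the same log2 units.

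Clustered protocadherins are cell surface adhesion proteins of the cadherin superfamily, best known from neurons. Each variable exon has its own promoter, and a neuron switches on a small set of these promoters, which lets a cell tell its own branches from those of its neighbours. The alpha and gamma genes splice a variable exon to shared constant exons, whereas each beta gene is a single coding exon that encodes a complete membrane protein without the shared cytoplasmic end. Dnmt3b, a de novo DNA methyltransferase, is known in mouse embryos and neurons for methylating the variable promoters, and loss of it there is known to widen the set of active promoters. The comparison asks how these genes stand in leukaemia cells labelled as lacking Dnmt3b.

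The beta protocadherins were dim on these arrays. Their means over 6 arrays ran from 2.84 for Pcdhb11 to 4.86 for Pcdhb16, against a median gene at 4.79. Only Pcdhb16 lay above the median gene, and 19 members lay below it. Pcdhb17, at 4.70, was the nearest below, followed by Pcdhb9 at 4.43 and Pcdhb5 at 4.12. Of the 20 genes, 13 were in the lowest 25% of all genes and 8 in the lowest 10%. All 20 lay within the span of the array's 23 background control rows, whose means ran from 2.32 to 5.18, and 13 lay above the median of those rows at 3.33. The array also holds 5222 negative control rows, with a median of their means at 6.19, and 0 members were above the median of these rows on any of the 6 arrays. The median gene, at 4.79, also lay below 6.19 and within the span of the background control rows. Neither comparison therefore sets the members apart from many other genes. Rows with different probes differ in brightness at the same RNA amount, so these ranks describe signal and not transcript number.

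**Figure D1:**
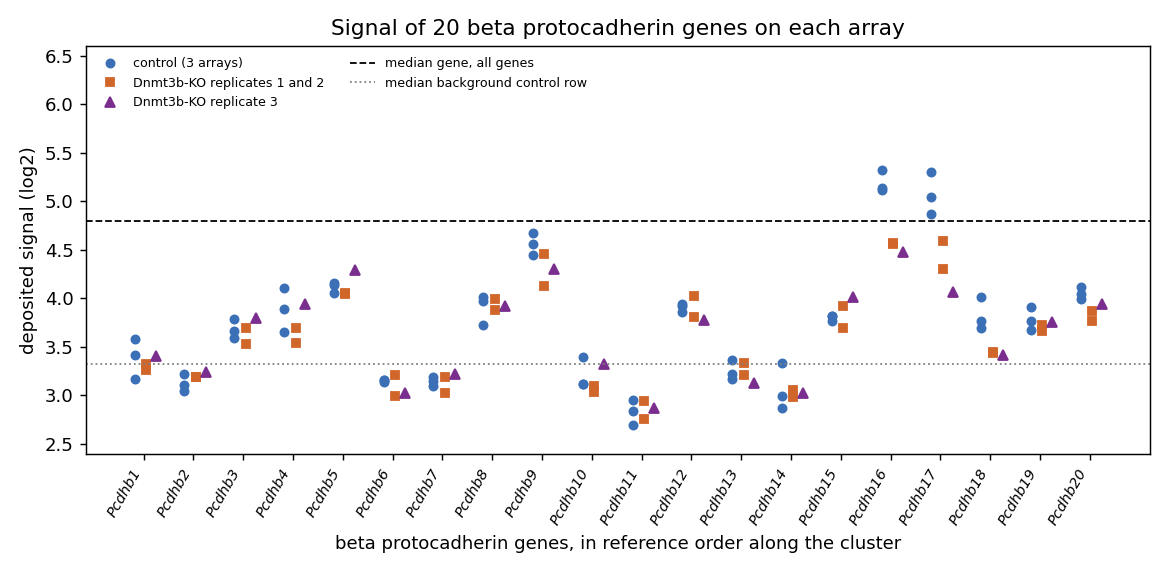
Deposited log2 signal (y axis) of 20 beta protocadherin genes in their order along the cluster (x axis), with a point for each of 3 control arrays, for Dnmt3b-KO replicates 1 and 2 and for replicate 3. The dashed line is the median gene at 4.79 and the dotted line the median background control row at 3.33. Pcdhb16 and Pcdhb17 rise above the dashed line in control and in no Dnmt3b-KO array, and they are singled out by their control level.

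Pcdhb16 and Pcdhb17 were the beta protocadherins that cleared the median gene in control, and both were lower in Dnmt3b-KO. On each control array exactly these 2 members were above that array's median gene, and on each Dnmt3b-KO array the number was 0. These 2 members are singled out by their control level, so a lower count in Dnmt3b-KO is partly built in and is no test. Pcdhb18, which follows them along the cluster, was lower too, at a level below the median gene throughout. No member was called higher.

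Pcdhb16 measured 5.11, 5.14 and 5.32 on control replicates 1, 2 and 3. It measured 4.56, 4.58 and 4.48 on Dnmt3b-KO replicates 1, 2 and 3. Every Dnmt3b-KO value was below every control value, and the SD was 0.05 among the 3 Dnmt3b-KO arrays and 0.12 among the 3 control arrays. Among all genes, Pcdhb16 stood at the 54.2 to 56.1 percentile in control and at the 43.1 to 47.2 percentile in Dnmt3b-KO. Over 6 arrays the difference was -0.65 ± 0.08 (SE, 95% interval -0.84 to -0.46), which did not pass the threshold of 0.05 after adjustment over all genes (limma, adjusted p = 0.284).

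Dnmt3b-KO replicate 3 is shown apart because it differs from the other arrays in many genes. Across genes it correlated with them at 0.981 to 0.982, against 0.998 to 0.999 among the other 5. It differed from Dnmt3b-KO replicates 1 and 2 by more than 0.5 in 20.9% of all genes and in 0 of the 20 beta protocadherins. That share includes bright genes, whereas 19 of the 20 members lie below the median gene. A share at their level was not taken, so the 0 does not show that the array spares them. A list of 12 macrophage markers, among them Mrc1, Csf1r and Gpnmb, averaged 11.37 on Dnmt3b-KO replicate 3 against 7.51 to 7.74 on the other arrays. On that array 11 of the 12 were above its median gene and 10 were above every control. Cd163 lay within the controls, and Vcam1 was below all of them at 9.04 against a control mean of 10.72. The part of that array's profile in the results was not tested, and differences are therefore given with and without it.

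Without Dnmt3b-KO replicate 3, Pcdhb16 fell by 0.63 ± 0.08 (SE) and passed the threshold (limma, adjusted p = 0.029). It was the only member called, 1 of 20 against 1.69% of all genes in either direction and 0.75% on the lower side. Over all 6 arrays 0 of 20 members and 0% of 30142 genes were called by limma, where 4 members had an unadjusted p under 0.05 against 6.37% of all genes. The same number, 4 of 20, stood without Dnmt3b-KO replicate 3 against 15.5% of all genes. The call for Pcdhb16 was lost when any 1 of the 5 arrays was left out (limma, adjusted p from 0.053 to 0.20, with the control spread standing in where 1 Dnmt3b-KO array is left) and in a test without empirical Bayes (adjusted p = 0.25). The direction was lower in each of these fits.

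Pcdhb17 measured 5.05, 5.30 and 4.87 on control replicates 1, 2 and 3, and 4.30, 4.59 and 4.07 on Dnmt3b-KO replicates 1, 2 and 3. The groups did not overlap, with Dnmt3b-KO replicate 3 the lowest. Its spread within groups was wider than that of Pcdhb16, 0.22 (SD, n = 3) in control and 0.26 in Dnmt3b-KO. The difference was -0.75 ± 0.17 (SE) over 6 arrays (limma, adjusted p = 0.60). Without Dnmt3b-KO replicate 3 it was -0.63 ± 0.14 (limma, adjusted p = 0.105), so Pcdhb17 did not pass in either fit.

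Pcdhb18 and Pcdhb20 are described because their groups did not overlap, which was seen in the values. Pcdhb18 measured 3.77, 4.02 and 3.70 in control and 3.44, 3.45 and 3.42 in Dnmt3b-KO. The 3 Dnmt3b-KO arrays were nearly alike, close to the median background control row. The difference of Pcdhb18 was -0.38 ± 0.10 (SE) without Dnmt3b-KO replicate 3 (limma, adjusted p = 0.141) and -0.39 ± 0.09 over 6 arrays (adjusted p = 0.64). Pcdhb20 measured 4.12, 3.99 and 4.04 in control and 3.87, 3.76 and 3.94 in Dnmt3b-KO. Its groups were separated by only a narrow gap, and its difference was -0.24 ± 0.07 (SE) without Dnmt3b-KO replicate 3 (limma, adjusted p = 0.162) and -0.19 ± 0.07 over 6 arrays (adjusted p = 0.75).

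These 4 genes are all the members whose groups did not overlap, 4 of 20 on the lower side and 0 of 20 on the higher side. Over all genes the groups did not overlap for 8.21% on the lower side and 6.68% on the higher side. Among genes below the median gene, the part of the scale where 19 of the 20 members lie, the lower side held 4.81%. Outside the clusters, 4 of 21 measured protocadherins and atypical cadherins were lower without overlap and 2 were higher. Pcdhb16, Pcdhb17 and Pcdhb18 follow each other in the reference order, Pcdhb15 before them overlapped between groups, and so did Pcdhb19 between Pcdhb18 and Pcdhb20. The beta genes resemble each other in sequence, and the sources used here do not give the probes of each row, so signal shared between neighbouring genes was not tested.

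**Figure D2:**
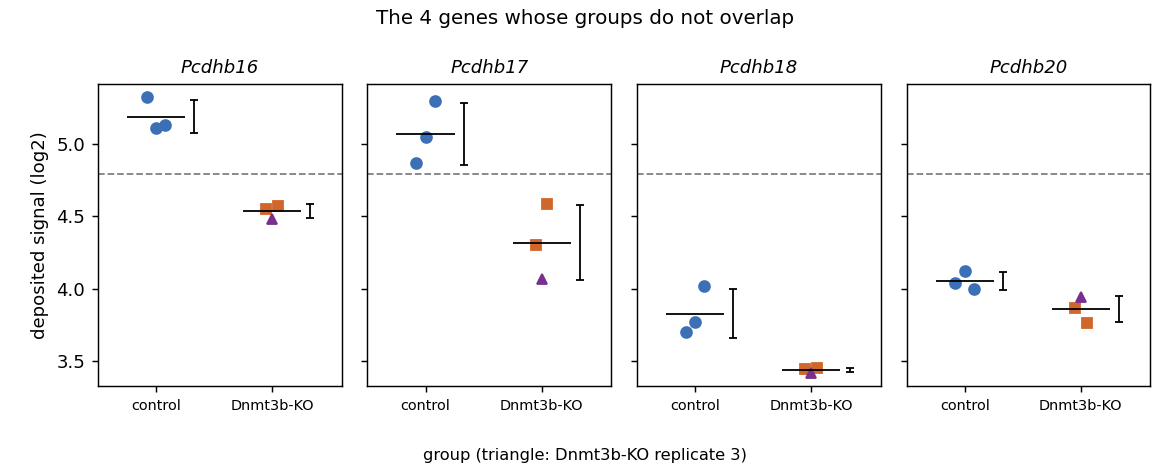
Deposited log2 signal (y axis) of Pcdhb16, Pcdhb17, Pcdhb18 and Pcdhb20 by group (x axis), with 3 control arrays (circles), Dnmt3b-KO replicates 1 and 2 (squares) and replicate 3 (triangle); horizontal lines are group means, bars ± SD (n = 3), and the dashed line the median gene. In all 4 panels the Dnmt3b-KO points lie below the control points, and the means of Pcdhb16 were 5.19 and 4.54.

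The other 16 members overlapped between groups. Without Dnmt3b-KO replicate 3 their differences ran from -0.27 for Pcdhb9 to 0.07 for Pcdhb2, and 13 of the 20 members differed by less than 0.1 in size. Pcdhb9 measured 4.56, 4.44 and 4.67 in control and 4.46, 4.12 and 4.30 in Dnmt3b-KO. Its group means were 4.56 ± 0.11 and 4.29 ± 0.17 (SD, n = 3), a gap of -0.26 ± 0.11 (SE) over 6 arrays (limma, adjusted p = 0.78), and Dnmt3b-KO replicate 1 lay among the controls. Pcdhb5 measured 4.14, 4.05 and 4.16 in control and 4.05, 4.04 and 4.29 in Dnmt3b-KO, with replicate 3 the highest of the 6 arrays. Pcdhb4 measured 3.66, 3.89 and 4.10 in control and 3.54, 3.70 and 3.94 in Dnmt3b-KO, a spread within each group as large as the gap between them. Pcdhb6, Pcdhb7, Pcdhb10, Pcdhb11, Pcdhb13 and Pcdhb14 lay under the median background control row in their means, as did Pcdhb2, at the foot of the array's scale.

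A rise of the 20 beta genes was not seen, and its size on the scale of this array can be bounded. The bound does not cover the gamma genes or the shared alpha row. That row measured 3.81 on Dnmt3b-KO replicate 3 against a control mean of 3.44. Without Dnmt3b-KO replicate 3, the upper end of the 95% interval of the difference was at most 0.28 among the 20 members, for Pcdhb14, and over 6 arrays it was at most 0.31, for Pcdhb15. The interval lay wholly below 0 for 4 members in both fits, Pcdhb16, Pcdhb17, Pcdhb18 and Pcdhb20. Over all genes it did so for 7.73% without Dnmt3b-KO replicate 3 and for 3.58% over 6 arrays. These intervals are for each gene alone and are not adjusted for the number of genes. On dim rows the signal moves less than the RNA does, so the bound holds for the signal.

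**Figure D3:**
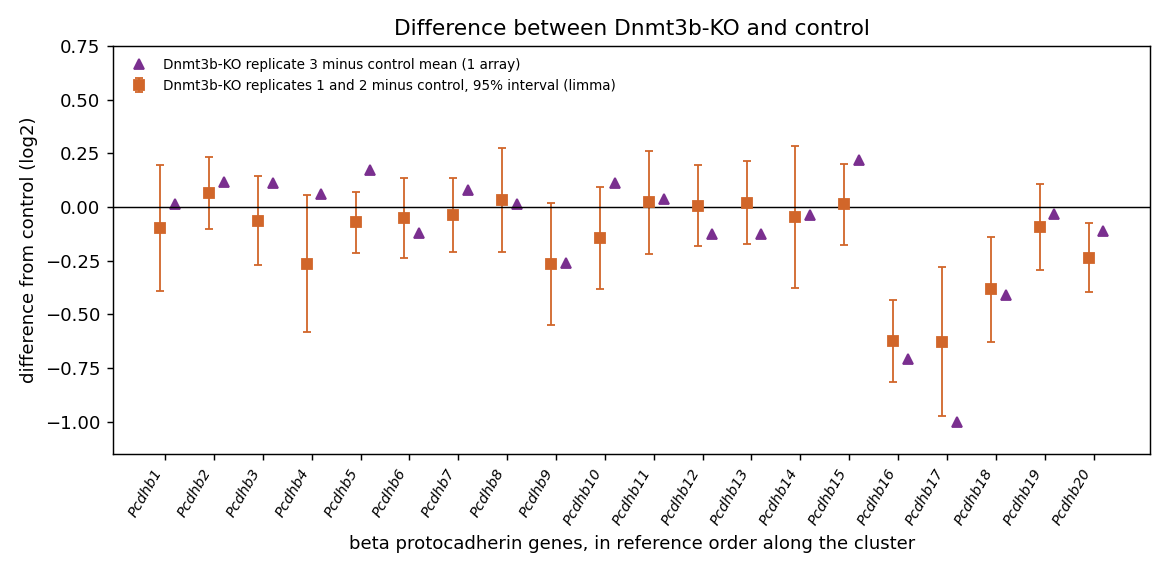
Difference in log2 signal from control (y axis) for each beta protocadherin gene along the cluster (x axis), with squares for Dnmt3b-KO replicates 1 and 2 with 95% intervals from limma and triangles for Dnmt3b-KO replicate 3 minus the control mean (1 array, no interval). The squares of Pcdhb16 and Pcdhb17 lie at -0.63, and no interval reaches beyond 0.28 on the higher side.

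By direction alone, 14 of 20 members had differences below 0 without Dnmt3b-KO replicate 3 (70%, against 53.7% of all genes and 56.2% of genes below the median gene). The median member difference was -0.07 against -0.01 over all genes. Over 6 arrays 14 of 20 were also below 0, against 51.2% of all genes and 42.0% of genes below the median gene, with a median of -0.05 against -0.004 over all genes. Of 21 measured protocadherins and atypical cadherins outside the clusters, 15 were below 0 without Dnmt3b-KO replicate 3 and 10 over 6 arrays. Without Dnmt3b-KO replicate 3, no member differed by more than 0.5 upwards, and 2 did downwards, Pcdhb16 and Pcdhb17. Between the control means of the lowest and the highest member lay 16467 genes. In the same fit 27 of them were higher by more than 0.5 and 20 were lower. By limma 22 of them were called higher and 15 lower in that fit, whereas over 6 arrays 0 genes were called.

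Dnmt3b-KO replicate 3 taken alone lay on both sides of control. It lay below every control for 8 members, within the controls for 7 and above every control for 5. Over all genes it lay below every control for 36.4% and above for 39.0%, and among genes below the median gene for 17.2% and 48.5%. The members below every control there were Pcdhb16, Pcdhb17, Pcdhb18 and Pcdhb20, together with Pcdhb6, Pcdhb9, Pcdhb12 and Pcdhb13. Those above were Pcdhb2, Pcdhb3, Pcdhb5, Pcdhb7 and Pcdhb15, by at most 0.22 over the control mean. Pcdhb17 differed most from Dnmt3b-KO replicates 1 and 2, by -0.37.

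The shared rows differed little between control and Dnmt3b-KO replicates 1 and 2, by 0.01 for the alpha genes and by -0.02 for Pcdhb21 and Pcdhb22. The row of the 14 alpha genes measured 3.45, 3.44 and 3.43 in control, 3.46 and 3.43 on those 2 arrays and 3.81 on Dnmt3b-KO replicate 3. The last value stood above the other 5 by more than their spread. The row of Pcdhb21 and Pcdhb22 measured 3.49, 3.58 and 3.61 in control and 3.54, 3.53 and 3.45 in Dnmt3b-KO. Both rows were dim, and a row that pools 14 promoters cannot show which of them is active.

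Genes beside the clusters were followed in the reference order. Of the 10 genes before the alpha cluster 10 were measured, among them Hars, a histidyl tRNA synthetase gene, and Ndufa2, a subunit of respiratory complex I. Of the 10 after the gamma cluster 4 were measured, with Diaph1, an actin nucleator, and Hdac3, a histone deacetylase. Between the clusters Slc25a2, Taf7 and Gm24401 were measured, of 12 genes that are no members. None of these 17 genes was called by limma in either fit. Without Dnmt3b-KO replicate 3 the median difference was -0.10 before, 0.12 between and -0.01 after the clusters, and over 6 arrays it was -0.03, -0.14 and -0.05. Wdr55 had the smallest p of these genes without that array, at -0.50 ± 0.12 (SE, limma, adjusted p = 0.110), and it differed by -0.31 ± 0.19 over 6 arrays. Ndufa2 differed by -0.35 ± 0.09 without Dnmt3b-KO replicate 3 and by -0.34 ± 0.08 over 6 arrays, with no overlap between groups. Vaultrc5, with the smallest p over 6 arrays, was higher with no overlap. It differed by 0.32 ± 0.09 (SE) without Dnmt3b-KO replicate 3 and by 0.38 ± 0.09 over 6 arrays. Without overlap, 2 of 10 genes before the clusters were lower and 2 higher, against 8.21% and 6.68% of all genes. Between the clusters the count was 0 of 3, and after them 1 of 4 was lower and 0 higher. Taf7, a subunit of the general transcription factor TFIID that lies between the beta and gamma clusters, averaged 7.81 in control and 8.10 on Dnmt3b-KO replicates 1 and 2, on the other side of control from Pcdhb16 and Wdr55, and 6.84 on replicate 3. Most of these genes were far brighter than the protocadherins, with 13 of the 17 above the median gene (8 of 10, 2 of 3 and 3 of 4).

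The choice of a protocadherin promoter is known to depend on the insulator protein CTCF and on cohesin, which loop promoters to distant enhancers. Of 12 measured genes of this list 12 were above the median gene and 0 were called by limma in either direction. By overlap of the groups, 2 of the 12 were lower and 0 higher, against 8.21% and 6.68% of all genes. Ctcf measured 12.51, 12.52 and 12.34 in control, 12.58 and 12.56 on Dnmt3b-KO replicates 1 and 2, and 11.75 on replicate 3, so its difference was 0.11 without replicate 3 and -0.16 over 6 arrays. Nipbl, which loads cohesin, had the smallest p of the list, with a difference of -0.27 ± 0.07 (SE) without Dnmt3b-KO replicate 3 (limma, adjusted p = 0.120) and -0.43 ± 0.15 over 6 arrays (adjusted p = 0.73). Over the list the median difference was 0.07 without Dnmt3b-KO replicate 3 and -0.16 over 6 arrays, and replicate 3 lay -0.43 from the other 2 Dnmt3b-KO arrays in the median.

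Silencing of the clusters is known to involve DNA methylation, SMCHD1 and SETDB1. Of 22 measured silencing genes 0 were called in either direction in either fit. By overlap of the groups, 6 of the 22 were lower and 0 higher, against 8.21% and 6.68% of all genes. These shares are not matched for signal level, and 21 of the 22 were above the median gene. The list also holds Tet1, Tet2 and Tet3, whose enzymes act against DNA methylation, and Tet1 and Tet3 were among the 6. The 6 are therefore not all genes that silence. Dnmt3b itself measured 6.76, 6.83 and 6.78 in control and 6.47, 6.63 and 5.96 in Dnmt3b-KO. Its groups did not overlap, though neither the difference of -0.24 ± 0.07 (SE) without replicate 3 nor that of -0.44 ± 0.17 over 6 arrays passed (limma, adjusted p = 0.159 and 0.78). The row covers the transcript and not a known deleted exon, so it checks the labels only weakly. Dnmt3a, the other de novo methyltransferase, differed by 0.01 ± 0.06 (SE), and Dnmt1, which maintains methylation, by 0.05 ± 0.06 without Dnmt3b-KO replicate 3 (limma, adjusted p = 0.98 and 0.79). Smchd1, a repressor of the clusters, differed by -0.11 ± 0.07 (adjusted p = 0.59) without that array. Over 6 arrays Dnmt3a differed by 0.13 ± 0.12, Dnmt1 by -0.23 ± 0.24 and Smchd1 by 0.05 ± 0.15, the last 2 with the opposite sign. Cdca7, which recruits the remodeller HELLS, had the smallest p of the list at -0.34 ± 0.09 without Dnmt3b-KO replicate 3 (limma, adjusted p = 0.135) and -0.42 ± 0.11 over 6 arrays (adjusted p = 0.65).

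Signals of clustered protocadherins with the shared cytoplasmic end are known to pass through the kinases FAK and PYK2 and through the WAVE complex. ADAM10 and gamma-secretase cut protocadherin proteins. The beta proteins lack that shared end, and a link between the measured beta genes and these partners was not tested. Of 19 measured partner genes 1 was called by limma without Dnmt3b-KO replicate 3, on the lower side, where 0.75% of all genes were. This was Abi2, a WAVE complex subunit, at 8.07, 8.18 and 8.07 in control and 7.62 and 7.74 on Dnmt3b-KO replicates 1 and 2. It fell by 0.43 ± 0.07 (SE, limma, adjusted p = 0.043), and the call was lost with a variance trend and robust fitting (adjusted p = 0.051), after repeated quantile normalization (adjusted p = 0.050) and when any 1 of the 5 arrays was left out. On Dnmt3b-KO replicate 3 Abi2 measured 9.29, above every control, and over 6 arrays it differed by 0.11 ± 0.45 (limma, adjusted p = 0.97). By overlap of the groups, 0 of the 19 partner genes were lower and 5 were higher, where 6.68% of all genes were. Among the 5 were Ptk2b, which encodes PYK2, and the WAVE complex genes Nckap1l and Abi1. They differed without Dnmt3b-KO replicate 3 by 0.31 ± 0.07, 0.26 ± 0.06 and 0.15 ± 0.08 (SE, limma, adjusted p = 0.096, 0.093 and 0.48), and over 6 arrays by 0.48 ± 0.16, 0.27 ± 0.05 and 0.28 ± 0.13. None of them passed the threshold. Fyn, a kinase that binds alpha protocadherins, averaged 4.98 in control and 4.79 on Dnmt3b-KO replicates 1 and 2, and measured 9.53 on replicate 3.

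Among the other protocadherins and atypical cadherins, which lie outside the clusters, 18 of 21 measured genes were below the median gene, as 19 of 20 beta genes were. The median difference was -0.02 without Dnmt3b-KO replicate 3. In that fit 1 of the 21 was called by limma, Pcdh7, on the lower side, against 0.75% of all genes. Pcdh7, a delta protocadherin, measured 6.26, 6.78 and 6.63 in control and 5.48 and 5.57 on Dnmt3b-KO replicates 1 and 2. It fell by 1.03 ± 0.15 (SE, limma, adjusted p = 0.036), and left-out arrays ended the call in 4 of 5 cases, the exception being control replicate 1, as did a test without empirical Bayes (adjusted p = 0.30). On Dnmt3b-KO replicate 3 it measured 11.01, the largest departure in this list, beside the macrophage markers that are higher there, and over 6 arrays it differed by 0.80 ± 1.52 (limma, adjusted p = 0.91). Celsr1, a planar polarity cadherin, averaged 8.82 in control, 8.39 on Dnmt3b-KO replicates 1 and 2 and 6.82 on replicate 3, and did not pass without replicate 3 (-0.43 ± 0.10, limma, adjusted p = 0.103) or over 6 arrays (-0.96 ± 0.44, adjusted p = 0.82). Whether the beta cluster differs from this list was not tested.

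**Figure D4:**
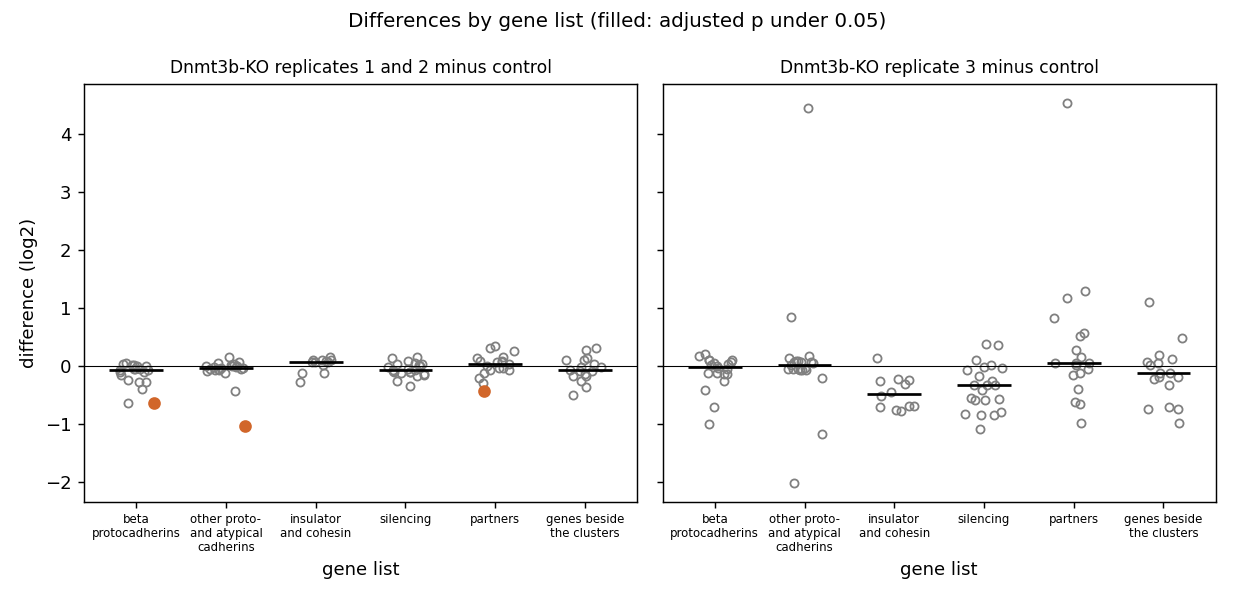
Difference in log2 signal from control (y axis) for the beta protocadherins, 4 gene lists and the genes beside the clusters (x axis; cell type markers are not drawn), for Dnmt3b-KO replicates 1 and 2 on the left and replicate 3 on the right; each circle is a gene, the bar is the list median, and filled circles on the left passed an adjusted p of 0.05 (limma). Filled circles are Pcdhb16, Pcdh7 and Abi2, all lower, and on the right Pcdh7 and Fyn stand far above the rest of the genes drawn.

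Markers of the labelled cells and of others were read from the same arrays. All 8 measured leukaemia and myeloid markers were above the median gene, with Mpo at 17.42 and Kit at 11.13 in control. The list averaged 12.76 on the control arrays, 12.81 and 12.91 on Dnmt3b-KO replicates 1 and 2 and 12.17 on replicate 3, where Mpo measured 16.54 and Kit 9.71. On replicate 3, 6 of the 8 lay below every control and 2 above. The 2 were Itgam, at 15.41 against a control mean of 13.61, and Ptprc, at 13.92 against 12.71. Of the 8, 1 was called higher and 1 lower by limma without Dnmt3b-KO replicate 3. Over all genes 1.69% were called in either direction in that fit and 0.75% on the lower side. Meis1, a homeobox cofactor of MLL-fusion leukaemia, measured 11.34, 11.41 and 11.36 in control, 12.00 and 12.04 on Dnmt3b-KO replicates 1 and 2 and 10.21 on replicate 3. It rose by 0.65 ± 0.06 (SE) without replicate 3 (limma, adjusted p = 0.011) and differed by 0.05 ± 0.50 over 6 arrays (adjusted p = 0.99). Cd34, a stem and progenitor cell surface protein, measured 9.41, 9.68 and 9.68 in control, 8.81 and 8.35 on Dnmt3b-KO replicates 1 and 2 and 6.84 on replicate 3. It fell by 1.01 ± 0.15 (SE) without replicate 3 (limma, adjusted p = 0.038) and differed by -1.59 ± 0.50 over 6 arrays (adjusted p = 0.71). These marker differences stand beside that of Pcdhb16 on the same arrays, and their part in it was not tested. Of 10 neuronal markers, such as Rbfox3, Map2 and Snap25, 0 were above the median gene. The neuronal list averaged 3.91 to 3.99 in control, 3.92 to 3.97 on Dnmt3b-KO replicates 1 and 2 and 4.06 on replicate 3. Of 6 lymphocyte markers 0 were above the median gene, of 9 stromal markers 2 and of 7 endothelial markers 1. Stromal and endothelial lists averaged 4.55 to 4.58 and 4.78 to 4.82 in control, 4.57 to 4.62 and 4.74 on Dnmt3b-KO replicates 1 and 2, and 4.46 and 4.57 on replicate 3. In RNA from many cells, fewer cells with a transcript and less of it per cell cannot be told apart, which applies to Pcdhb16.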

How the data were processed

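The file holds log2 values deposited by the authors, normalized with RMA per the submitters' processing notes; version, array annotation and scanner software are not given in the sources used here. Values run from 1.89 to 19.59, beyond 16, the log2 limit of a 16-bit scanner, so an unstated step changed the scale and no folds are given. Rows were named through a platform table with old annotation: 30604 had exactly 1 symbol, 2146 several and 33206 none, and 6732 were array controls. Symbols of 827 rows were updated by gene identifier, and the brightest row per gene was kept. All 20 members had 1 row each, and its gene identifier was that of the reference symbol.

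Groups were compared with limma 3.58.1 in R 4.3.3 (lmFit, eBayes, Benjamini-Hochberg adjustment across all genes, threshold 0.05), over 6 arrays and without Dnmt3b-KO replicate 3. The fitting code was tested on simulated data. The members, lists, that left-out array and the alternatives were chosen with earlier results of these data known. Named are the members above the median gene, the 3 brightest below it, called members, those with the smallest p, and from each list the called genes or the smallest p, with Dnmt3b, Dnmt3a, Dnmt1, Ctcf and Smchd1. Pcdhb4, Pcdhb18, Pcdhb20, Celsr1, Fyn, Taf7, Wdr55, Ndufa2, Vaultrc5, Ptk2b, Nckap1l, Abi1, Tet1, Tet3, Meis1, Cd34, Itgam, Ptprc, Cd163 and Vcam1 were added after their values were seen. Some listed genes and markers, among them Zfp143, Ptk2, Cyfip1, Dchs2 and Hoxa9, were not analysed here. No coordinates are given because the build of the rows was not settled. The number of arrays limits the precision.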

Additional observations from a re-analysis of the deposited data

How the results depend on the processing

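Over 6 arrays 0 members were called under every alternative run except array weights, which called 1, Pcdhb16, with a weight of 0.11 for Dnmt3b-KO replicate 3 against 1.26 to 2.17 for the others; leaving out each array gave 0 to 1, the 1 being without Dnmt3b-KO replicate 3. Without that array the count of 1 became 2 among genes above the median gene, a filter that Pcdhb16 and Pcdhb17 pass only through their control arrays and that therefore supports nothing, 0 without empirical Bayes and 0 with 1 more array left out. With the replicate number as a block (replicate block) it became 0, Pcdhb16 at -0.56 with adjusted p = 0.083 (limma), and over 6 arrays it stayed 0. Deviations of same-numbered arrays correlated at 0.13, 0.03 and 0.11, which does not show that the numbers pair the arrays. Limited to genes above the median gene, which leaves 1 or 2 members that are above it in control only, so that a fall is built into the filter, the median difference was -0.65 over 6 arrays and -0.63 without Dnmt3b-KO replicate 3; with 1 more array left out the median of -0.068 ran from -0.100 to -0.052. Pcdhb9, Pcdhb16, Pcdhb17, Pcdhb18 and Pcdhb20 were lower in every alternative run. Genes of the lists changed sign: over 6 arrays with array weights Abi2 (-0.36), Pcdh7 (-0.83), Dnmt1 (0.026), Ctcf (0.083) and Smchd1 (-0.090). With 1 of the 6 arrays left out Abi2 ran from -0.43 to 0.41, Pcdh7 from -1.03 to 1.73, Dnmt1 from -0.38 to 0.048, Ctcf from -0.30 to 0.11 and Smchd1 from -0.11 to 0.13, with the sign of Dnmt3b-KO replicates 1 and 2 where replicate 3 is left out. Without Dnmt3b-KO replicate 3, Dnmt3a was -0.028 with the block and ran from -0.028 (without control replicate 3) to 0.045 with 1 more array left out. The cause of these changes was not tested.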
